A study of Homo sapiens with 15 samples.

Results

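NP-IWP2 is the inhibitor-based cardiac route of this study, and it was followed on days 3, 5, 7 and 10 with 1 bulk RNA sequencing library per day. These 4 libraries, of 15 in the series, were chosen by their labels and are compared here only with each other over time. The cells were of the wild-type (WT) line H1, a human embryonic stem cell line. They were turned into mesendoderm with CHIR99021, which activates WNT signalling, on day 0 and given insulin on day 1. They then stayed in the same wells (NP, not passaged) in DF medium, a DMEM/F12 mixture, which held the inhibitor IWP2 from day 2 to day 4 and no supplement from day 5. The day 3 library was therefore taken in the inhibitor and the other 3 after its removal, so that time and the presence of IWP2 cannot be told apart here. No day had a second culture. A difference between days can thus not be set against a spread between cultures, and no p-value is given. Every 95% interval below covers counting error only. Because PCR copies a molecule many times, these intervals can be too narrow even for that error.

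WNT proteins need the acyltransferase Porcupine (gene PORCN) before they can leave the cell, and IWP2 blocks that enzyme. In the embryo WNT signalling first forms the primitive streak and mesoderm, and its decline then lets anterior mesoderm become heart, which is the sequence that the protocol follows in a dish. Cardiac mesoderm switches on transcription factors such as those of the GATA, HAND, T-box, NKX2 and MEF2 families, and these go with the assembly of the sarcomere, in which myosin thick filaments pull on actin thin filaments anchored at the Z-disc, under the control of calcium released from the sarcoplasmic reticulum.

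The total count per library ran from 13495766 on day 3 to 16168278 on day 7, and 27231 to 29862 genes were above 0. Levels are FPKM, the count of a gene scaled to its exon length and to the size of the library. For a gene with 1 kilobase of exon, 3 counts corresponded to 0.186 to 0.222 FPKM. The genes considered were the 14878 with at least 1 FPKM and at least 30 counts in at least 1 of the 4 libraries. A gene is said to have risen or fallen when log2(FPKM + 1) differed by at least 1 between the days named, a scale that understates the change of genes with low levels. Counts from the mitochondrial genome made up 4.66%, 4.58%, 5.41% and 6.02% of the libraries in order of days. Of 12 widely used reference genes, 0 rose or fell at any of the 3 steps, which also held for 12136 of the 14878 genes. From day 3 to day 10, 1 of the 12 rose and 0 fell. Their summed level was 1413, 1514, 1311 and 937.1 FPKM in order of days.

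The labels call all 4 samples embryonic stem cells, but the summed level of 3 markers of that state fell after day 3. For POU5F1, NANOG and SOX2 this sum was 87.3, 6.95, 0.12 and 0.1 FPKM in order of days. On day 10 all 3 genes were at or under 3 counts. Most of the day 3 sum was POU5F1 (76.0 FPKM). The streak gene EOMES (46.8 FPKM) and the mesoderm gene MESP1 (39.2 FPKM) were present in that library as well. SOX2 lies inside the longer transcript SOX2-OT, and whether the counting used strand was not stated. The summed level of 6 cardiomyocyte markers (TNNT2, MYH6, MYL7, ACTN2, NKX2-5 and RYR2) was 7.06, 531, 2056 and 1359 FPKM. MYL7 alone gave 480.1 FPKM of it on day 5. MYL7 (1216 and 720.2 FPKM) and MYH6 (633 and 445 FPKM) made up most of it on days 7 and 10. Both of these and NKX2-5 were lower on day 10 than on day 7, while TNNT2, ACTN2 and RYR2 were higher. Markers of other cell types moved as well. The sum of 6 endoderm markers (SOX17, FOXA2, AFP, TTR, APOA1 and APOA2) went from 26.5 through 72.7 and 307 to 1178 FPKM. On day 3 the factors SOX17 and FOXA2 made up nearly all of it, and both were lower on day 10. By then AFP (716 FPKM) and APOA1 (314 FPKM) made up most of it. The sum of 4 fibroblast markers (POSTN, LUM, DCN and COL1A1) went from 25.6 to 473, 425 and 419.6 FPKM. On day 5 LUM (110.0 FPKM) and COL1A1 (363 FPKM) made up nearly all of the fibroblast sum, with POSTN at 0.22 and DCN at 0.15 FPKM. The sum of 4 epicardial markers (WT1, TBX18, TCF21 and UPK3B) was 3.15, 6.88, 33.1 and 76.4 FPKM. For 4 endothelial ones (PECAM1, CDH5, TEK and TIE1) it was 0.32, 2.59, 19.4 and 18.8 FPKM. On day 10 TBX18 and TEK made up most of these 2 sums. That of 2 smooth muscle markers (MYH11 and CNN1) was 7.82, 7.08, 22.2 and 8.93 FPKM. The sum of 2 blood markers (TAL1 and GATA1) stayed at or under 0.82 FPKM, and that of 4 neural ones (PAX6, SOX1, STMN2 and ELAVL3) at or under 3.37. The part that other cell types had in the changes below was not tested. In such bulk samples, fewer cells of a type and less RNA per cell cannot be told apart.

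The sequences just upstream of 4 genes that mark the switches are shown here, because ACTC1 and MYL7 were among the contractile genes at high level by day 5, MYH6 was the myosin heavy chain that rose most between days 5 and 7 in log2(FPKM + 1), and AFP had the largest rise of the whole course. They are the 250 bases before the RefSeq start on GRCh38.p14, written 5′ to 3′ on the strand of the gene. Capitals mark every match, on either strand, to the CArG box (known as the site of the muscle regulator SRF), to TATAAA (the TATA box) and to GTTAAT (a hexamer within the site known for HNF1 factors of liver). The matches shown do not overlap each other. ACTC1 lies at chr15:34795550-34795799 (minus strand), MYL7 at chr7:44141333-44141582 (minus), MYH6 at chr14:23408274-23408523 (minus) and AFP at chr4:73435971-73436220 (plus).
ACTC1: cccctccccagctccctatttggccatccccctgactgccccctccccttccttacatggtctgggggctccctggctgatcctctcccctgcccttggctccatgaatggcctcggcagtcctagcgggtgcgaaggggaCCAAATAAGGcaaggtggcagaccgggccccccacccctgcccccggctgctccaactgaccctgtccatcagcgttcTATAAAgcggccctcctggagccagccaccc
MYL7: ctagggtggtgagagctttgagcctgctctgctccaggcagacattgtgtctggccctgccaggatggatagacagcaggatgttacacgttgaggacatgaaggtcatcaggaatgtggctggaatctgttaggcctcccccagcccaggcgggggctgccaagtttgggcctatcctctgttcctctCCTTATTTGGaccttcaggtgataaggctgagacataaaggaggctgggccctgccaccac
MYH6: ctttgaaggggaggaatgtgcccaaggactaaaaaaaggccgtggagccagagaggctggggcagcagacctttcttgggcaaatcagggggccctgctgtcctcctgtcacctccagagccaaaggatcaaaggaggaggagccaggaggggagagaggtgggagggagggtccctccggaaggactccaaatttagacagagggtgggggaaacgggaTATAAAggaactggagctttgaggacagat
AFP: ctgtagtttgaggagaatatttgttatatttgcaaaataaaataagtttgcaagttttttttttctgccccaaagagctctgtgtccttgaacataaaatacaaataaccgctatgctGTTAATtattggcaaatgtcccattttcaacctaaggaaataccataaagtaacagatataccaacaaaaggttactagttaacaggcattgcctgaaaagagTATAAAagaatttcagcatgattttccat
Among 35116 upstream sequences of the same length, 1.16% held a CArG box, 10.7% held TATAAA and 6.23% held GTTAAT at least once. In ACTC1 there was a CArG box 109 to 100 bases before its start and TATAAA 31 to 26 bases before it. MYL7 held a CArG box 61 to 52 bases before its start, and MYH6 held TATAAA 30 to 25 bases before its own. AFP held TATAAA 29 to 24 bases and GTTAAT 132 to 127 bases before its start. Across the lists used below, a CArG box was found in 2 of 12 thin filament genes with a sequence (ACTA1 and ACTC1), 2 of 6 thick filament genes (MYL7 and MYOM1), 1 of 12 Z-disc genes (LDB3) and 0 of 9 endoderm and liver genes, while GTTAAT was found in 4 of those 9 (AFP, ALB, FGB and HNF4A). In the contractile lists GTTAAT was found in 1 thin filament gene (LMOD2) and in 0 thick filament and 0 Z-disc genes. TATAAA was found in 4 thin filament, 1 thick filament, 1 Z-disc and 3 endoderm and liver genes. None of 11 S phase genes held any of the motifs. A gene was counted when any of its upstream sequences matched, whereas the percentages above are per sequence, so they are unlike measures. A match is a run of letters and not a measured binding site.

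The largest turnover fell between day 3 and day 5. Of the 14878 genes, 826 (5.55%) were higher on day 5 and 918 (6.17%) lower, with a median difference of -0.05 over all genes, and 89 rose and 39 fell by 3 or more. Between day 5 and day 7, 598 genes (4.02%) rose and 305 (2.05%) fell. Between day 7 and day 10, 296 (1.99%) rose and 350 (2.35%) fell, and here the share of risers among the changed genes was 45.8% on FPKM but 56.6% when the values were rescaled to TPM. From day 3 to day 10 the balance was 1920 genes higher (12.9%) and 2269 lower (15.3%), but 2728 and 2578 on TPM and 2045 and 2046 with median-of-ratios size factors, so that it has no direction that held under each scaling. Neighbouring steps share a library and are not independent of each other.

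**Figure D1:**
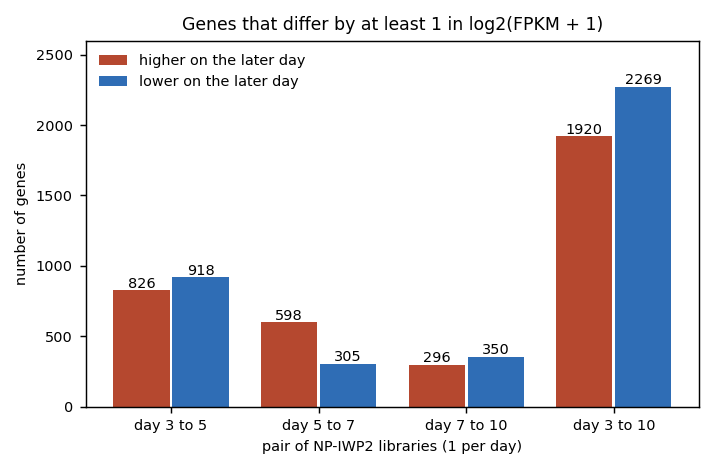
Number of genes higher (red bars) or lower (blue bars) by at least 1 in log2(FPKM + 1) on the later of 2 days, for the 4 pairs of single NP-IWP2 libraries on the horizontal axis. The counts decrease from 826 and 918 in the first step to 296 and 350 in the last.

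Most genes passed at no step: 12136 of the 14878 stayed within 1 at each. Among the rest, 783 fell at the first step alone, 548 rose at the first alone and 375 rose at the second alone. Only 8 genes rose at all 3 steps and 6 fell at all 3.

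The genes of the primitive streak and early mesoderm went down first. All 10 members above the minimum, of 14 listed, fell between day 3 and day 5 (6.17% of all genes). Their median was -3.63 beside -0.05 for all genes, and just 1 of them (DLL3) fell again between day 5 and day 7 (2.05%). The other 4, MSGN1, CDX1, CDX2 and RIPPLY2, stood under 1 FPKM on every day. Of the 10, TBXT, GSC, MESP1, MESP2 and FGF17 met the minimum on day 3 alone, so their later fall was in large part set by it. EOMES, a T-box factor of the streak, stood at 46.8, 1.41, 0.49 and 0.09 FPKM on days 3, 5, 7 and 10, and fell 33.1-fold in the first step (95% interval 26.3 to 42.5). MESP1, the early marker of cardiac mesoderm, stood at 39.2, 0.98, 0.81 and 0.27 FPKM on the 4 days, a first fall of 39.8-fold (28.2 to 58.0). MESP2, its neighbour on chromosome 15 and close in sequence, stood at 53.2, 0.35, 0.34 and 0.07 FPKM, and how reads were divided between both genes is uncertain. All 3 genes were thus high on day 3 alone. MIXL1, a homeobox factor of the streak, fell 24.7-fold (19.4 to 31.9) from 58.3 FPKM to 2.36, and then held 2.83 and 2.67 FPKM. The Notch ligand DLL3 came down more slowly, at 121, 13.2, 3.17 and 3.23 FPKM. TBXT, the founding T-box factor of the streak, was already low on day 3 at 2.9 FPKM and had 0 counts on each later day.

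By size, MESP2, GAL, WNT8A and MESP1 were among the 5 protein-coding genes that fell most in this step. GAL, which codes for the neuropeptide galanin, stood at 73.4, 1.2, 0.62 and 0 FPKM. WNT8A, a ligand of streak and mesoderm, had 542 counts on day 3, 1 on day 5 and none later. From day 3 to day 10 the largest falls included those of CFC1, VRTN, POU5F1 and GAL. CFC1, a co-receptor for NODAL, fell at both the first and the second step, by 8.17-fold (7.55 to 8.86) and 8.31-fold (6.7 to 10.4), with 239, 29.2, 3.51 and 1.77 FPKM, and VRTN had 102, 11.6, 1.26 and 0.22 FPKM.

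The pluripotency genes left in an order of their own. Over the whole course 10 of 10 fell (15.3% of all genes), with a median of -2.41 beside -0.05 for all genes. At the first step 5 fell, at the second 3 and at the last 3, counting a gene at each step it passed. Of all genes, 6.17%, 2.05% and 2.35% fell at these steps. POU5F1 stood at 76.0 FPKM on day 3 and 6.27 on day 5 and had 0 counts on day 7 and 1 count on day 10. It fell 12.1-fold (10.7 to 13.8) and then at least 97.5-fold, with 3 counts as the floor. LIN28A, an RNA-binding protein that blocks let-7 microRNAs, was still at 174 and 233 FPKM on days 3 and 5 and then at 97.5 and 18.8. L1TD1, a further RNA-binding protein of stem cells, stood at 38.8, 49.7, 5.36 and 1.37 FPKM, and ZFP42, a zinc finger factor, at 18.4, 19.8, 11.5 and 3.14. The transcription factors POU5F1, SOX2 and PRDM14 were thus low by day 5, while LIN28A, L1TD1 and ZFP42 were no lower on day 5 than on day 3 and fell afterwards.

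The cardiac transcription factors divided into those present on day 3 and those that came later. HAND1, the basic helix-loop-helix factor of lateral and extraembryonic mesoderm, was at its highest on day 3, with 492, 304, 323 and 132 FPKM, and fell only between day 7 and day 10, by 2.45-fold (2.35 to 2.54). GATA4, a zinc finger factor of early heart, stood at 63.1, 103, 139 and 78.8 FPKM and passed at no step. GATA5 (36.1 to 42.1 FPKM), GATA6 (74.3 to 102 FPKM) and ISL1 (28.8 to 39.6 FPKM), the LIM factor of heart progenitors, also stayed within 1 at each step. Between day 3 and day 5, 11 of the 22 factors rose and 3 fell, with a median of 0.94, where 5.55% of all genes rose and 6.17% fell with a median of -0.05. SMYD1, a muscle methyltransferase, went from 2 counts (0.03 FPKM) on day 3 to 27.8 FPKM on day 5 and then 35.5 and 51.1. MEF2C went from 0.11 to 8.82, 21.4 and 20.9 FPKM, a first rise of 82.3-fold (51.2 to 142). HAND2 rose 4.07-fold (3.77 to 4.4), from 16.8 to 68.6 FPKM, and TBX20, a T-box factor of heart, 3.96-fold (3.45 to 4.55), from 10.5 to 41.6, reaching 109 FPKM on day 10. FOXF1, HEY2 and IRX4 were the 3 that fell, FOXF1 from 10.8 to 1.33 FPKM.

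NKX2-5 and TBX5 came up mainly after day 5. NKX2-5, the homeobox factor of the heart field, stood at 1.01, 7.8, 126 and 92.3 FPKM, a rise of 7.7-fold (5.19 to 11.8) and then of 16.2-fold (14.1 to 18.6). TBX5, a T-box factor of the first heart field and atria, stood at 0.68, 2.8, 28.8 and 34.9 FPKM, a rise of 4.1-fold (2.9 to 5.9) and then of 10.3-fold (8.81 to 12.1). MYOCD, the partner of SRF, rose in the same steps, with 1.44, 8.78, 27.4 and 23.6 FPKM. In all, 6 of 22 factors rose and 0 fell between day 5 and day 7 (4.02% and 2.05% of all genes), and after day 7 HEY1 and HEY2, targets of Notch, rose while HAND1 fell. HEY1 was at 3.25, 2.71, 3.01 and 10.8 FPKM, so that it was the latest of the list.

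**Figure D2:**
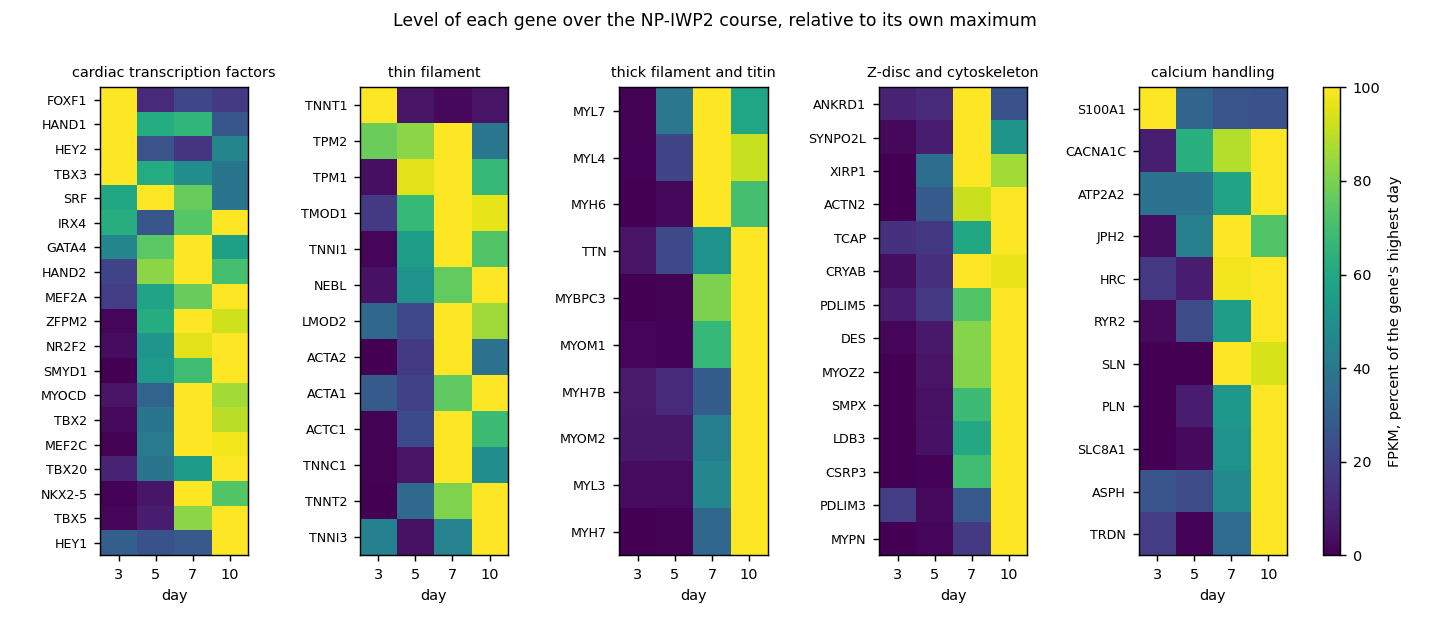
Level of each gene as a percent of its highest FPKM over the 4 NP-IWP2 libraries (colour), with days on the horizontal axis, for the members of 5 lists that moved at least 2-fold. Among thick filament, Z-disc and calcium handling genes most rows are dark on days 3 and 5 and bright from day 7, whereas 4 thin filament genes and 6 transcription factors reach 50% of their maximum on day 5.

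The sarcomere was not switched on as a block. In the first step, 8 of 13 tested thin filament genes rose and 2 fell (median 2.34), against 4 and 0 of 11 thick filament genes (median 0.2) and 7 and 0 of 15 Z-disc genes (median 0.69). As log2 ratios without the pseudocount and with 3 counts as the floor, these medians were 3.254, 1.155 and 1.88. The distance between the lists was thus in part due to genes with low levels. In the second step, the counts were 6 and 0 for the thin filament (median 0.85), 8 and 0 for the thick filament (median 2.25) and 13 and 0 for the Z-disc (median 2.05). In the last step 0 thin filament genes rose and 3 fell (median -0.12), while 3 thick filament genes rose and 0 fell (median 0.57). The shares of all genes that rose were 5.55%, 4.02% and 1.99% in these steps, and those that fell 6.17%, 2.05% and 2.35%.

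Among the thin filament genes, ACTC1, cardiac alpha-actin, stood at 5.6, 233, 1039.8 and 713 FPKM. Its first rise was 41.6-fold (35.8 to 48.6) and its second 4.47-fold (4.36 to 4.58). TPM1, the tropomyosin that lies along the actin filament, was near its highest level by day 5, with 14.7, 349, 366 and 243 FPKM, and the slow skeletal and fetal troponin gene TNNI1 stood at 2.17, 78.5, 141 and 103 FPKM. Both passed only in the first step. TNNT2, cardiac troponin T, went from 0.06 to 14.6, 34.4 and 42.8 FPKM. TNNC1, the calcium-binding troponin of heart and slow muscle, rose most between day 5 and day 7, with 0.91, 8.67, 161 and 78.4 FPKM, and was among the 3 that fell after day 7. The others were ACTA2, smooth muscle actin, at 0.07, 27.1, 159 and 60.2 FPKM, and TPM2 at 47.2, 50.3, 60.9 and 24.0 FPKM. The adult cardiac troponin gene TNNI3 never passed 3.23 FPKM, and TNNT1, of slow skeletal muscle, was high on day 3 alone, at 19.2, 1.0, 0.41 and 1.01 FPKM.

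Of the thick filament genes, MYL7, the atrial regulatory light chain, came first. It stood at 5.29, 480.1, 1216 and 720.2 FPKM, with a first rise of 90.8-fold (74.9 to 111) and a second of 2.53-fold (2.48 to 2.59). MYH6, the alpha heavy chain, stood at 0.07, 13.1, 633 and 445 FPKM, and most of its level was added between day 5 and day 7, a rise of 48.3-fold (45.8 to 51.0). MYBPC3, cardiac myosin-binding protein C, was later still in its start, with 1, 39, 6617 and 8063 counts on the 4 days, and its rise of 148-fold (108 to 209) in the second step was the largest of any protein-coding gene on the log2 scale used. MYOM1, which links thick filaments at the M-band, stood at 0.6, 0.35, 28.2 and 42.3 FPKM. MYL3, the ventricular and slow essential light chain, stood at 3.36, 3.3, 49.0 and 106 FPKM and rose at both later steps. MYH7, the beta heavy chain, stood at 0.01, 0.08, 5.77 and 17.3 FPKM, and rose 70.2-fold (33.9 to 176) into day 7 and 2.99-fold (2.72 to 3.3) after it. The giant spring protein titin, TTN, rose more evenly, at 1.31, 5.63, 13.1 and 25.7 FPKM. MYL2, the ventricular regulatory light chain, had 0 counts until day 7 and 8 counts on day 10.

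Pairs of sarcomere genes that replace each other in the growing heart were unequal from day 5 on. The ratio of MYH7 to MYH6, per length, was 0.0063 on day 5 (0.0025 to 0.013), 0.0091 on day 7 (0.0084 to 0.0099) and 0.0388 on day 10 (0.0369 to 0.0407). The 2 genes are neighbours on chromosome 14 (MYH6 23381982 to 23408273 and MYH7 23412740 to 23435660 on GRCh38) and nearly alike in sequence, so the split of their reads is uncertain. MYL3 to MYL4, the latter an atrial and fetal chain, went from 0.0634 on day 5 to 0.195 on day 7 and 0.461 on day 10 (0.444 to 0.479). TNNI3 to TNNI1 was 0.0018, 0.0101 and 0.0315 on the same days. In all 3 pairs the ratio was higher on day 10 than on day 7 by more than counting error, and from day 5 the ventricular or adult member stayed below the other.

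At the Z-disc and in the cytoskeleton, 14 of 15 tested genes were higher on day 10 than on day 3 and 0 lower, beside 12.9% and 15.3% of all genes. ACTN2, the actinin that crosslinks actin at the Z-disc, rose early, with 0.12, 11.2, 35.8 and 38.9 FPKM. Desmin (DES), the muscle intermediate filament, stood at 0.83, 3.27, 38.5 and 47.2 FPKM, and the Z-disc adaptor LDB3 at 0.12, 1.96, 25.02 and 41.4 FPKM. MYOZ2 and CSRP3, both Z-disc partners of calcineurin or actinin, had 0 counts on day 3 and reached 35.0 and 9.28 FPKM on day 7. ANKRD1, a stress-responsive titin partner, was a passing signal at 10.6, 13.2, 108 and 27.3 FPKM. It rose 8.21-fold (7.33 to 9.21) into day 7 and fell 3.95-fold (3.65 to 4.28) after it. FLNC, a filamin, was high from the start and lay between 62.6 and 83.7 FPKM.

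Of 11 tested calcium handling genes, 5 rose and 1 fell in the first step, 7 rose and 0 fell in the second and 2 rose and 0 fell in the last (medians 0.00, 1.11 and 0.76). Of all genes, 5.55%, 4.02% and 1.99% rose and 6.17%, 2.05% and 2.35% fell in these steps. Phospholamban (PLN), the brake on the calcium pump, stood at 0.02, 4.66, 30.4 and 56.9 FPKM. The sodium-calcium exchanger SLC8A1 stood at 0.07, 1.24, 26.0 and 51.0 FPKM and rose 21.0-fold (18.9 to 23.3) into day 7. RYR2, the calcium release channel, rose from 0.51 through 4.43 and 10.7 to 19.2 FPKM. These 3 were highest on day 10. Sarcolipin (SLN), the atrial relative of phospholamban, had 0 counts on days 3 and 5 and stood at 28.3 and 26.6 FPKM on days 7 and 10, at least 121-fold higher in its step. The pump itself, ATP2A2, was present from the start at 23.0, 22.9, 35.3 and 60.4 FPKM and passed only over the whole course, by 2.63-fold (2.54 to 2.72). TRDN, triadin of the release complex, was the member that fell first, and it stood at 3.07, 0.14, 5.9 and 16.9 FPKM.

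Ion channels moved in both directions. In the first step 4 of 12 tested rose and 3 fell (5.55% and 6.17% of all genes). HCN4, the pacemaker channel, rose at the first and second steps and stood at 2.45, 6.06, 26.1 and 44.2 FPKM. CACNA1D, a calcium channel of nodal cells, went from 0.05 to 4.75, 5.26 and 8.37 FPKM. The potassium channel gene KCNA5 went the other way, at 18.6, 2.84, 1.64 and 2.08 FPKM, and GJA1, the gap junction protein connexin 43, stood at 312, 234, 52.3 and 42.9 FPKM and fell 4.47-fold (4.29 to 4.66) into day 7. Of the natriuretic peptides, which heart muscle secretes, NPPA stayed at or under 2.71 FPKM and NPPB was highest on day 7, at 7.12, 4.19, 10.4 and 2.23 FPKM. Of the 7 tested genes of natriuretic peptides and muscle metabolism, 1 rose and 1 fell in the first step, 5 rose and 0 fell in the second (4.02% and 2.05% of all genes) and 2 rose and 1 fell in the last (1.99% and 2.35%). Muscle creatine kinase (CKM) rose 68.6-fold (38.2 to 138) into day 7 and stood at 2.1, 0.5, 34.3 and 65.9 FPKM.

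The day on which a gene first reached 50% of its highest level gives the order of the lists as a whole. It was set for the 7312 genes whose highest level was at least 2-fold above the lowest, and was day 3 for 4192 genes (57.3%), day 5 for 1515 (20.7%), day 7 for 1130 (15.5%) and day 10 for 475 (6.5%). Streak and early mesoderm, G2 and mitosis, S phase and pluripotency genes were at that level on day 3 without exception (10 of 10, 14 of 14, 10 of 10 and 10 of 10). For the streak genes that met the minimum on day 3 alone, this was in large part set by that minimum. Fibroblast and smooth muscle genes were mostly of day 5 (8 of 12). Day 7 was the start for 12 of 14 Z-disc genes, 7 of 11 calcium handling genes, 6 of 10 thick filament genes and 6 of 7 genes of the TCA cycle, the mitochondrial pathway that oxidises acetyl groups. Thin filament genes divided into 2, 4, 6 and 1 over the 4 days and cardiac transcription factors into 6, 6, 6 and 1. Day 10 was the start for 6 of 15 endoderm and liver genes and 6 of 12 endothelial and blood genes.

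**Figure D3:**
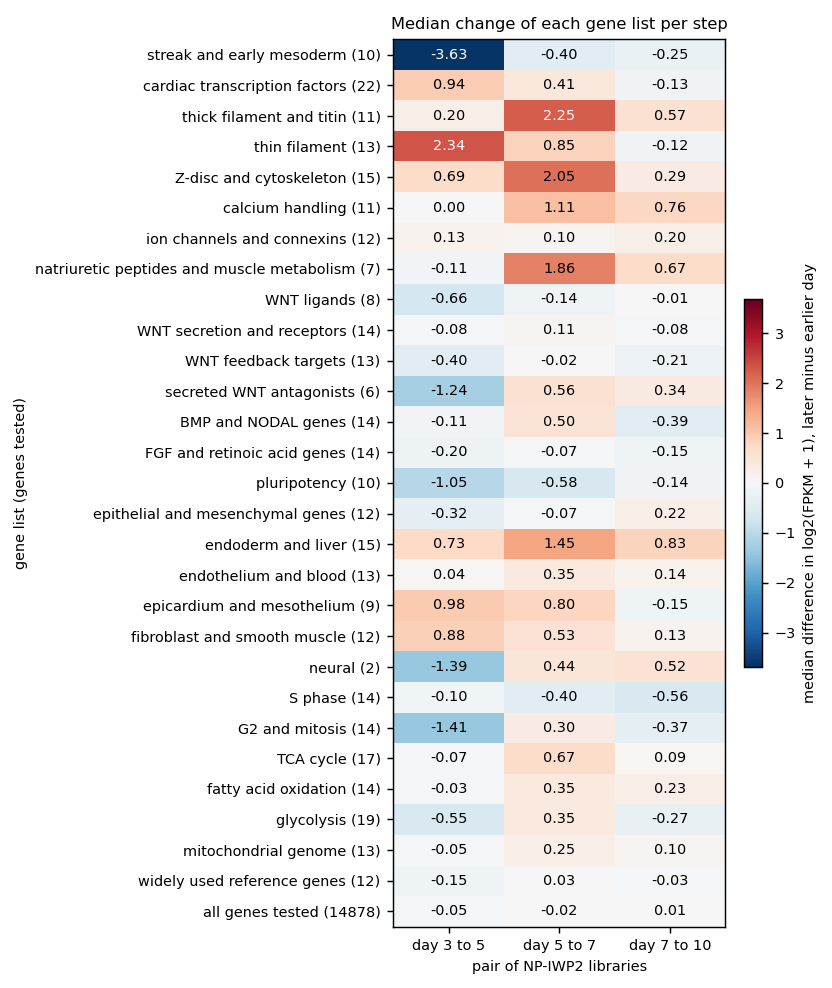
Median difference in log2(FPKM + 1), later minus earlier day, over the tested members of each gene list (rows, with the number tested) for the 3 steps between single NP-IWP2 libraries (columns), red where higher and blue where lower on the later day. The deepest blue is streak and early mesoderm in the first step (-3.63), the thin filament is red in the first step (2.34), and the thick filament (2.25) and Z-disc (2.05) are red in the second.

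The pathway that the inhibitor acts on was read through its own genes. PORCN, the target of IWP2, stood at 2.86, 3.15, 2.54 and 2.19 FPKM, and WLS, which carries WNT proteins to the cell surface, rose 4.21-fold (4.03 to 4.4) after day 3 and stood at 40.5, 171, 152 and 99.8 FPKM. Of the 15 ligands listed 8 were above the minimum, and they changed in kind over time. WNT8A and WNT4 fell in the first step, WNT4 from 4.21 to 0.35 FPKM, while WNT3 (12.1, 5.63, 3.31 and 2.6 FPKM) and WNT5A (34.6, 17.1, 14.4 and 15.2 FPKM) passed only over the whole course. WNT6 was highest on day 5 alone, at 1.42, 4.98, 1.15 and 0.48 FPKM. WNT11, a ligand known for signalling without beta-catenin in heart, rose 6.77-fold (5.87 to 7.84) into day 7, at 6.38, 6.41, 43.4 and 31.9 FPKM, and WNT2 went from 0 and 0.08 to 5.82 and 8.02 FPKM. Of 14 tested secretion and receptor genes, 3 rose in the first step (WLS, FZD4 and FZD6), 1 in the second (FZD1) and 0 in the last, and none fell at a step. Of all genes, 5.55%, 4.02% and 1.99% rose and 6.17%, 2.05% and 2.35% fell at the 3 steps.

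Feedback targets, which WNT signalling is known to induce, moved apart from each other. Of 13 tested, 3 rose and 3 fell in the first step (5.55% and 6.17% of all genes). In the second step 1 rose and 2 fell (4.02% and 2.05%), and in the last 2 rose and 2 fell (1.99% and 2.35%). AXIN2, the commonly used target, stayed within 1 at 6.55, 4.71, 4.67 and 3.89 FPKM, and LEF1, a transcription factor of the pathway, lay between 30.8 and 44.3 FPKM. SP5 fell at every step, with 26.9, 6.0, 2.3 and 0.43 FPKM. LGR5, the receptor for R-spondins, was no lower on day 5 than on day 3 and then had the largest fall of a protein-coding gene in log2(FPKM + 1) at the second step, with 23.3, 25.1, 0.75 and 0.19 FPKM and a fall of 33.6-fold (26.1 to 43.9). The opposite held for DKK1, a secreted antagonist that blocks LRP co-receptors, which rose at all 3 steps and stood at 0.27, 2.61, 8.16 and 41.9 FPKM. BAMBI, a decoy receptor that dampens BMP signalling, rose 8.18-fold (7.73 to 8.67) and stood at 46.1, 377, 390.2 and 187 FPKM.

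Among the other secreted antagonists the early ones fell and other ones took their place. CER1, which also binds NODAL and BMP, stood at 11.1, 0.17, 0.65 and 0.46 FPKM and SFRP2 at 42.0, 1.91, 0.43 and 1.23. SFRP1 fell 4.13-fold (3.96 to 4.31) and partly returned, at 160.5, 38.9, 60.5 and 88.5 FPKM. FRZB, a frizzled-like decoy, rose 5.9-fold (4.65 to 7.57) and then 5.29-fold (4.81 to 5.83), at 2.25, 13.3, 70.2 and 77.5 FPKM. SFRP5 rose once and stood at 13.7, 35.4, 47.1 and 41.7 FPKM. Counted over the 6 tested, 2 rose and 3 fell in the first step (5.55% and 6.17% of all genes). In the second step 2 rose and 1 fell (4.02% and 2.05%), and none passed in the last (1.99% and 2.35%).

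**Figure D4:**
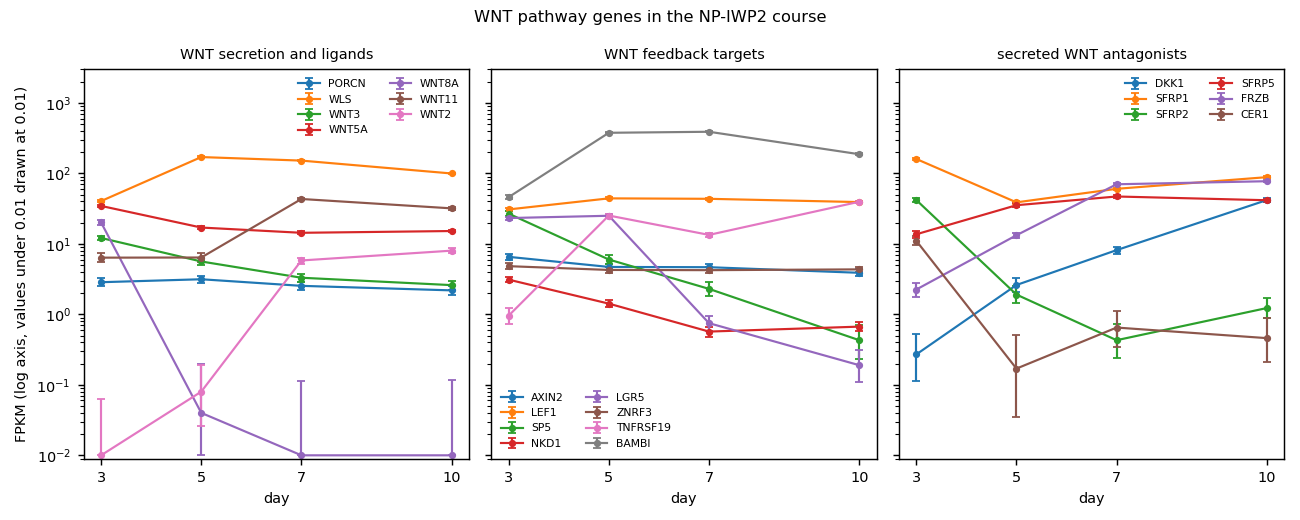
FPKM (log axis, values under 0.01 drawn at 0.01) of WNT secretion genes and ligands, feedback targets and secreted antagonists on days 3, 5, 7 and 10, 1 NP-IWP2 library per day, with bars for the exact 95% counting interval. DKK1 climbs from 0.27 to 41.9 FPKM while SP5 declines from 26.9 to 0.43 and LGR5 drops after day 5.

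Other signals of heart formation showed single strong movers. Of 14 tested BMP and NODAL genes 3 rose and 3 fell in the first step, in which 5.55% of all genes rose and 6.17% fell. BMP5, a ligand of heart mesoderm, rose 25.8-fold (23.4 to 28.5), at 7.9, 204, 132 and 161 FPKM, while BMP4 was highest on day 5, at 48.9, 129.9, 70.6 and 38.8 FPKM. BMP2 dipped and returned, at 29.0, 11.3, 56.6 and 28.2 FPKM. ID1 and ID3, which BMP signalling is known to induce, passed at no step, with 84.2 to 110.2 and 163 to 229.8 FPKM. TDGF1 (CRIPTO), a NODAL co-receptor, fell 3.57-fold (3.2 to 3.98) after day 3. Of the FGF and retinoic acid genes, 2 of 14 rose and 6 fell in the same first step. CYP26A1, the enzyme that degrades retinoic acid, fell from 18.9 to 0.67 FPKM, and FGF10, a ligand of heart progenitors, was highest on day 5, at 4.82, 21.8, 8.68 and 12.8 FPKM. FGFR1 fell 2.25-fold (2.17 to 2.35) into day 7, and DUSP6, a phosphatase induced by FGF signalling, stood at 11.2, 66.7, 91.1 and 23.5 FPKM.

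The cadherins crossed over in the same period. CDH1, the epithelial one, stood at 20.4, 11.9, 4.28 and 7.07 FPKM and CDH2, the one of heart and mesenchyme, at 17.4, 29.2, 74.3 and 123 FPKM. Their ratio was 1.17 (1.1 to 1.25), 0.408, 0.0576 and 0.0576 over the 4 days. VIM, the filament of mesenchymal cells, was a peak of day 5, at 159, 938, 260.2 and 217 FPKM. Of 12 epithelial and mesenchymal genes, 1 rose and 3 fell in the first step (5.55% and 6.17% of all genes). In the second step 1 rose and 2 fell (4.02% and 2.05%).

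The largest rise of a protein-coding gene at any step was in the matrix. COL3A1, a fibrillar collagen chain, had 7 counts on day 3 and 42340 on day 5, and stood at 0.08, 443, 705 and 628 FPKM, a rise of 5771-fold (2801 to 14350). LUM, the proteoglycan lumican, had 0 counts on day 3 and stood at 110.0, 136 and 165 FPKM later, at least 1322-fold higher on day 5. COL1A1 rose 14.2-fold (13.7 to 14.7), from 25.5 to 363 FPKM, and FN1, fibronectin, 3.52-fold (3.46 to 3.58), from 68.7 to 242. Of 12 tested fibroblast and smooth muscle genes, 6 rose and 0 fell in this step, with a median of 0.88, beside 5.55% and 6.17% of all genes and a median of -0.05. POSTN and DCN, matrix genes of more mature fibroblasts, were not part of that step and rose after day 7, to 7.57 and 5.58 FPKM, while MYH11, the defining smooth muscle myosin, stayed at or under 0.17 FPKM. The remaining 2 of the 5 largest risers of the step were transient. RGS4, a regulator of G protein signalling, stood at 0.3, 92.0, 35.1 and 8.92 FPKM, and PLAT, tissue plasminogen activator, at 0.06, 56.3, 7.56 and 4.41.

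Members of the endoderm and liver list rose in every step. Of 15 tested, 6 rose and 1 fell between days 3 and 5, 9 and 1 between days 5 and 7 and 7 and 1 between days 7 and 10, with medians of 0.73, 1.45 and 0.83 (all genes, -0.05, -0.02 and 0.01). Of all genes, 5.55%, 4.02% and 1.99% rose and 6.17%, 2.05% and 2.35% fell. AFP, the main plasma protein of yolk sac and fetal liver, had 0, 5, 2574 and 36277 counts and stood at 0, 0.11, 49.7 and 716 FPKM, which made it at least 10300-fold higher on day 10 than on day 3. APOA1, the chief apolipoprotein of HDL, started earlier, at 0.2, 50.3, 139 and 314 FPKM. TTR, a thyroxine carrier, stood at 0, 3.12, 34.3 and 62.0 FPKM and APOB, the core protein of lipoprotein particles, at 0.03, 2.57, 9.16 and 52.4 FPKM. Of the early endoderm factors, SOX17 and FOXA2 were lower on day 10 than on day 3. SOX17 stood at 20.5, 6.06, 0.29 and 1.91 FPKM and FOXA2 at 4.8, 8.06, 3.94 and 1.23.

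The 5 largest rises after day 7 were all of such secreted proteins. APOA4 stood at 0, 0.05, 1.26 and 72.5 FPKM and AHSG, fetuin-A, at 0, 0.38, 2.01 and 95.4 FPKM. FGG, a fibrinogen chain, stood at 0.27 FPKM on day 7 and 17.1 on day 10, and APOC3 at 1.09 and 26.1. AFP rose 14.4-fold (13.8 to 14.98). APOA1, APOA4 and APOC3 lie side by side on chromosome 11 (116820700 to 116837622).

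Epicardial and endothelial genes did not move as groups of 1 timing. TBX18, a T-box factor of epicardium, had 0 counts on day 3 and stood at 0.47, 21.8 and 65.1 FPKM later, while WT1 was highest on day 7, at 0, 1.3, 6.67 and 3.53 FPKM. Over the whole course 6 of 9 tested epicardial and mesothelial genes rose and 1 fell, beside 12.9% and 15.3% of all genes. The 1 that fell was KRT19 (a keratin, at 281, 470.1, 227 and 84.3 FPKM). KDR, the VEGF receptor of mesoderm and endothelium, held 91.3 to 100.4 FPKM throughout. The angiopoietin receptor TEK stood at 0.23, 2.49, 18.6 and 13.5 FPKM, and the junction genes PECAM1 (1.29 FPKM) and CDH5 (2.44 FPKM) passed only in the last step. Of 13 tested endothelial and blood genes, 8 rose and 0 fell from day 3 to day 10, to be read against the same shares. Of 10 neural genes only NES and STMN2 were above the minimum, and PAX6 and SOX1, which define early neural cells, stayed at or under 0.05 FPKM.

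**Figure D5:**
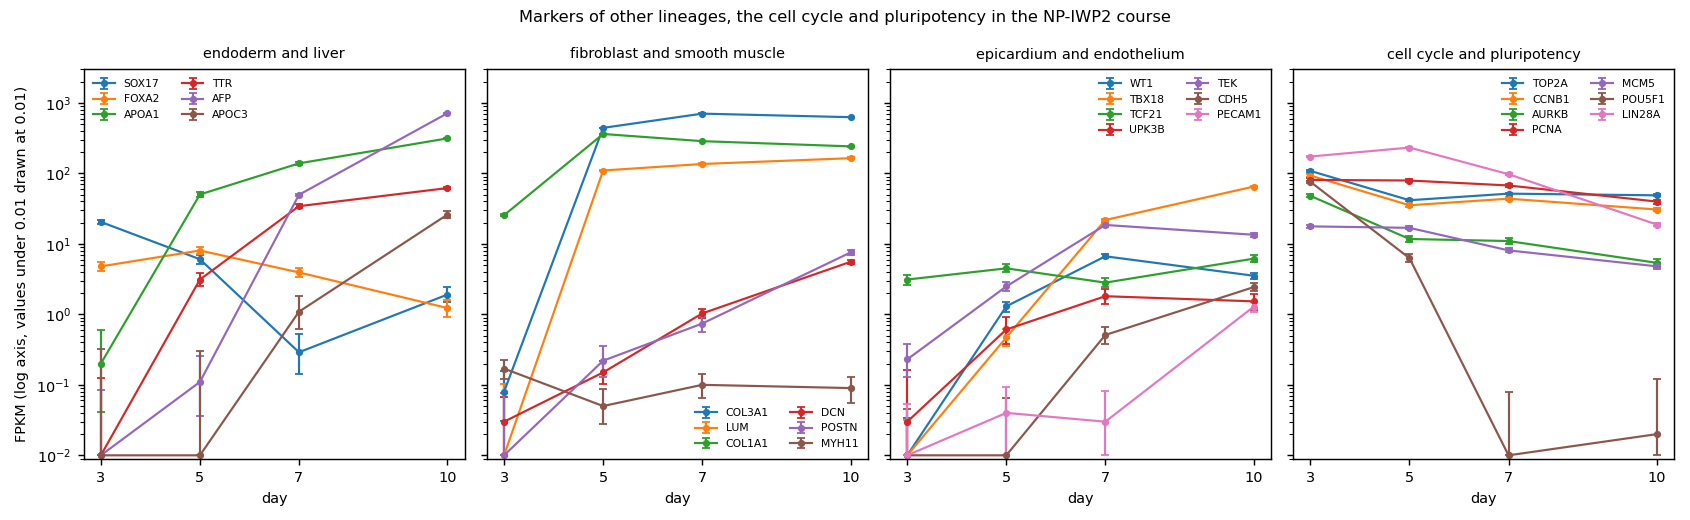
FPKM (log axis, values under 0.01 drawn at 0.01) of endoderm and liver, fibroblast and smooth muscle, epicardial and endothelial, and cell cycle and pluripotency genes on days 3, 5, 7 and 10, 1 NP-IWP2 library per day, with bars for the exact 95% counting interval. AFP climbs from 0 to 716 FPKM, COL3A1 stands at 443 FPKM or more from day 5, and POU5F1 has 0 counts on day 7.

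The 2 cell cycle lists fell at different times. All 14 genes of G2 and mitosis fell between day 3 and day 5 (6.17% of all genes), with a median of -1.41. At the later steps 0 of 14 passed, where 2.05% and 2.35% of all genes fell. Between day 5 and day 7, 10 of the 14 were above 0, with a median of 0.30 beside -0.02 for all genes. TOP2A, the topoisomerase of dividing cells, stood at 109, 41.6, 51.7 and 48.9 FPKM, CCNB1, the mitotic cyclin, at 93.2, 35.3, 43.8 and 30.7, and AURKB, a mitotic kinase, at 48.0, 11.7, 10.98 and 5.38. Replication genes followed more gradually. In the first step 1 of 14 S phase genes fell (6.17% of all genes), the licensing factor CDT1, from 47.1 to 16.1 FPKM. None passed at a later step, but 10 of 14 were lower on day 10 than on day 3 (15.3% of all genes). PCNA, the replication clamp, stood at 80.9, 79.4, 67.5 and 39.8 FPKM and MCM5, of the replicative helicase, at 17.7, 16.9, 8.09 and 4.8.

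The metabolic lists differed from each other. From day 3 to day 10, 4 of 17 TCA cycle genes, 3 of 14 fatty acid oxidation genes and 3 of 19 glycolytic genes rose (12.9% of all genes). Over the same days 0, 0 and 4 of them fell (15.3%). None of 17 TCA cycle genes passed in the first step and 0 in the last. In the second step 3 rose (IDH3A, IDH2 and SDHD, where 4.02% of all genes rose), with a median of 0.67 beside -0.02 for all genes. IDH3A, a subunit of isocitrate dehydrogenase, stood at 1.71, 1.9, 7.07 and 7.19 FPKM. Among 14 genes of fatty acid oxidation, CPT1A, which commits fatty acids to the mitochondrion, was the 1 that rose in the second step (4.02% of all genes). It stood at 3.23, 1.2, 5.13 and 9.83 FPKM. Of 19 glycolytic genes 3 rose and 3 fell in the first step (5.55% and 6.17% of all genes). PKM, pyruvate kinase, fell 2.21-fold (2.15 to 2.28), whereas ENO3, the muscle enolase, rose 2.87-fold (2.53 to 3.27) and stood at 5.66, 16.3, 30.9 and 27.8 FPKM. None of the 13 protein genes of the mitochondrial genome passed at any step, which also held for 12136 of all 14878 genes. From day 3 to day 10, 11 of the 13 were above 0, with a median of 0.51 beside -0.05 for all genes.

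A few further genes were among the 5 largest movers of their step. POU4F1, a POU homeobox factor, came up with MYBPC3, AFP, MYH6 and SLN in the second step and stood at 0.11, 0.09, 30.7 and 67.6 FPKM. BRINP2, a BMP and retinoic acid inducible gene, and ATOH1, a basic helix-loop-helix factor of sensory and gut cells, fell with LGR5, L1TD1 and POU5F1, after being high on day 5 alone at 17.8 and 12.9 FPKM. After day 7 the largest falls were those of CALB2 (calretinin), LIN28A, C1QL1, MSX1 and RPL41. CALB2 stood at 1.87, 12.4, 11.2 and 0.93 FPKM, C1QL1 at 14.0, 17.0, 19.5 and 3.23, and MSX1, a homeobox target of BMP signalling, at 29.9, 43.0, 48.8 and 9.76. RPL41, a ribosomal protein gene, stood at 226, 169, 117 and 26.4 FPKM.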

How the data were processed

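Bulk RNA was measured in 4 NP-IWP2 libraries, 1 for each of days 3, 5, 7 and 10, which were mapped to their day by their labels and matched by name to 1 column of counts and 1 of FPKM each. The submitters' processing notes name Cutadapt (version 1.9.1), HISAT2 (2.0.1), HTSeq (0.6.1), DESeq2 and the build hg38. The authors deposited raw read counts for 60605 Ensembl genes. The deposited FPKM values equal these counts divided by exon length and library total, to within 0.005. The protocol lists SMRTbell, a kit for long reads, beside tools made for short ones, which leaves a doubt over values scaled by gene length, and whether counting used strand is not given in the sources used here. Of the identifiers, 60463 were in GENCODE release 44, 93.7% of them at the same position, and 19913 symbols came from a table of gene names. Columns of the authors' own comparisons were not used.

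Genes with at least 1 FPKM and 30 counts in at least 1 of the 4 libraries were compared on log2(FPKM + 1), with a pseudocount of 1 and a threshold of 1 and no test, since each day is 1 library. Of the 14878 genes, 12787 were protein-coding. Ratios of single genes carry 95% intervals from the Clopper-Pearson interval of a share of counts. With 0 counts on a side, 3 counts were used and the fold is a bound. The 28 gene lists held 389 genes, of which 345 were compared. The members and lists were chosen with earlier results of these data known. Single genes were named as the 5 largest protein-coding rises and falls of each comparison with at least 30 counts in the higher library, or as list members with the highest level, the largest change or a defining role. Some genes that this rule names are not reported here. The calls were tested on simulated data. Upstream sequences are those of RefSeq, and 17 of 32 genes named by size had one. Alternatives were a pseudocount of 0.1, a difference of 2, TPM, TMM factors of edgeR (version 4.0.16), size factors of DESeq2 (1.42.0; R 4.3.3), other minimum levels, protein-coding genes alone and 25% in place of 50% of the maximum. Python 3.11.15, scipy 1.17.1, pandas 2.3.3 and numpy 2.4.6 were used.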

Additional observations from a re-analysis of the deposited data

How the results depend on the processing

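Each value rests on 1 library per day, so no result could be repeated without a library, and depth limits genes near 3 counts, which is 0.186 to 0.222 FPKM at 1 kilobase. No paired analysis was possible because each day had 1 library and no test was made. Scaling by TMM or by median-of-ratios factors left all 8 counts of changed genes within 1.5 times. The counts of genes higher and lower were 1381 and 1471 (day 3 to 5), 1069 and 728 (5 to 7) and 731 and 771 (7 to 10) with a pseudocount of 0.1. With a difference of at least 2 they were 250 and 183, 138 and 38, 25 and 10, and 576 and 435 from day 3 to day 10. On TPM they were 1295 and 1240, 919 and 612, and 689 and 528. With no minimum count they were 1067 and 1494, 922 and 606, and 821 and 594. With a mean of at least 5 FPKM they were 520.0 and 369, 338 and 166, 99 and 257, and 993 and 1332. The share of genes higher among those changed between day 7 and day 10 was 45.8% as reported, 56.6% on TPM, 71.4% at a difference of 2, 58.0% with no minimum count and 27.8% at a mean of 5 FPKM, and between days 3 and 5 it was 47.4%, 51.1%, 57.7%, 41.7% and 58.5%. From day 3 to day 10 it was 45.8%, 51.4% on TPM, close to even with median-of-ratios factors (2045 higher and 2046 lower) and 57.0% at a difference of 2. The balance of these 3 comparisons thus depends on the setting, while rises outnumbered falls between day 5 and day 7 at each (59.5% to 78.4%). Setting the day at 25% of the maximum put 865 genes at day 5, 490 at day 7 and 137 at day 10. Of 112 medians of lists, 45 moved by over 0.1 with a pseudocount of 0.1, 49 on TPM and 0 with either set of size factors, and none of the 51 of at least 0.5 in size changed sign. No scaling moved the median of all genes by over 0.1.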

Other observations

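The groups of genes in this section were chosen after their values were seen, and their values are given without an explanation. Cytosolic ribosomal protein genes were lower late in the course. Of 83 compared, 0 were higher and 45 lower on day 10 than on day 3 (12.9% and 15.3% of all genes). Their median was -1.09 beside -0.05 for all genes, and their summed level was 19030, 16920, 11410 and 8291 FPKM in order of days. Step by step 0, 1 and 13 of them fell and none rose, where 6.17%, 2.05% and 2.35% of all genes fell. Over the whole course 79 of the 83 were below 0.

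A set of neighbours on chromosome 17 was highest on day 5. TMEM88 (7855066 to 7856099 on GRCh38), a membrane protein known to restrain WNT signalling in heart progenitors, stood at 148, 761, 218 and 69.0 FPKM. It rose 5.15-fold (95% counting interval 4.9 to 5.43) and then fell 3.49-fold (3.35 to 3.64). Its neighbours CYB5D1 (2.92, 43.4, 5.64 and 1.51 FPKM), NAA38 (23.3, 122, 27.2 and 8.61 FPKM), DNAH2 (1.49, 12.49, 1.17 and 0.44 FPKM) and KDM6B (28.8, 51.1, 19.95 and 13.7 FPKM) were highest on the same day. CYB5D1 and NAA38 overlap on opposite strands, so their reads may be shared. In all, 106 protein-coding genes with at least 100 counts were at 50% or more of their maximum on day 5 alone, among them BRINP2, ATOH1, PLAT, LRP1B (0.17, 17.4, 2.48 and 1.07 FPKM), TNC, the matrix protein tenascin C (6.22, 30.7, 4.26 and 5.27 FPKM), and RGS2 (11.1, 44.7, 5.84 and 4.84 FPKM). Day 7 alone held 23 such genes, led by ANKRD1. They included the actin-binding ABRA (0, 0.03, 6.92 and 1.65 FPKM), CNN1, the smooth muscle calponin (7.65, 7.03, 22.1 and 8.84 FPKM), and the choline transporter SLC5A7 (0, 1.81, 9.35 and 1.5 FPKM).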
